A study of Mus musculus with 24 samples.

Results

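The genes that build the contractile apparatus of muscle and couple its excitation to contraction were followed in mouse muscle stem cells (MuSCs). A list of 48 gene symbols was matched by name to the deposited table, and 43 of the 48 were among its 17111 genes. All 43 passed the filter on low values, which asked for 4 or more libraries at or above a signal of 1. Myh2, Myh7, Myh8, Mybpc2 and Cacna1s were not analysed here. The 43 were divided by developmental stage into 4 early forms (Myh3, Actc1, Tnnt2 and Myl4), 17 adult fibre forms and 22 members that muscle uses at both stages.

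MuSCs were isolated from muscle of L2A-Pax7CreER mice (KO) and L2A-WT mice (WT), either uninjured (day 0) or 1 or 4 days after cardiotoxin (10 µM, 50 µL) was injected into the muscle. Cardiotoxin is a snake toxin that destroys muscle fibres. The series describes the mice as Lamp2A-Pax7CreER and Lamp2a-WT. LAMP2A is the lysosomal receptor of chaperone-mediated autophagy, and Pax7CreER is a tamoxifen-inducible Cre driven by Pax7, the transcription factor of MuSCs. Each of the 6 groups (KO and WT at day 0, KO and WT at day 1, KO and WT at day 4) had 4 libraries. Cre is named for the KO mice and not for the WT mice, so that any effect of Cre and the loss of LAMP2A cannot be told apart. Whether the WT mice received tamoxifen is not given in the sources used here, and an effect of the drug cannot be told apart from that of the genotype either. Nothing in the labels ties replicate libraries to separate mice, and p-values then measure the spread between these libraries, which may be technical.

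A library held 11.58 to 22.47 M counts, and all 24 carried the same batch label. Values are a linear normalised signal per gene that differs from counts per M reads by a factor for each library. The signal of all genes summed to 0.93 to 1.06 M in KO and 1.04 to 1.10 M in WT libraries of day 0, 1.07 to 1.12 M in KO and 0.87 to 0.92 M in WT libraries of day 1, and 1.128 to 1.345 M in KO and 0.77 to 0.86 M in WT libraries of day 4. KO values of days 1 and 4 therefore stand higher against WT as signal than as a share of counts. In this signal a count of 0 stands at 0.0208 to 0.0457 and 3 counts at 0.145 to 0.32. Summed signal of 12 markers of quiescent MuSCs was 2919 to 3504 in KO and 2683 to 3445 in WT libraries of day 0. At day 1 it was 3058 to 3834 in KO and 3400 to 4628 in WT libraries. At day 4 it was 1115 to 1239 in KO and 1019.5 to 1144 in WT libraries. None of the 12 was at a count of 0 throughout a group. As a share of all counts the order at day 4 turned, KO libraries holding 0.0922 to 0.0989% and WT libraries 0.121 to 0.142%. At day 1 the share was 0.2835 to 0.3597% in KO and 0.3773 to 0.5308% in WT libraries, without overlap. The whole Lamp2 gene, whose table row does not separate the LAMP2A isoform, averaged 582 ± 36.0 in KO and 676 ± 151 in WT libraries of day 0 (SD, n = 4), and was not called at any day (limma, adjusted p = 0.711, 0.641 and 0.917 at days 0, 1 and 4). That row therefore does not check the genotype labels.

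In a sarcomere, myosin thick filaments pull on actin thin filaments when calcium binds troponin and tropomyosin moves aside. Titin spans each repeating unit, Z discs anchor the thin filaments, and desmin ties neighbouring Z discs together. Excitation begins at the acetylcholine receptor of the motor endplate and ends with calcium release through the ryanodine receptor. Regenerating muscle first makes embryonic and cardiac isoforms of several of these proteins and later exchanges them for adult fast and slow isoforms.

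Promoter windows from RefSeq (GRCm38.p6, 250 bases before to 50 bases after the annotated start) were matched for 37 of the 48 symbols, 32 of them among the 43 analysed. They are shown for 4 members whose levels are described in detail: Ckm and Chrna1, which hold an E box bound by myogenic factors such as MyoD, Myh3, which holds a TATA box, and Tmod1, which holds none of the motifs searched. Capitals mark CAGCTG, searched on both strands, and TATAAA, searched on the sense strand.
Ckm, chr7:19410844-19411143, plus strand: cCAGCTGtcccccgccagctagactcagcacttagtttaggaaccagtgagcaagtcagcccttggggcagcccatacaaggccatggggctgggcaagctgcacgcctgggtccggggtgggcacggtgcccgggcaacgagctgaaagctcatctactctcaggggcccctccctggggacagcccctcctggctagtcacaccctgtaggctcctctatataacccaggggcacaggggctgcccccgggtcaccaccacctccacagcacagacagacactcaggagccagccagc
Chrna1, chr2:73580289-73580588, minus strand: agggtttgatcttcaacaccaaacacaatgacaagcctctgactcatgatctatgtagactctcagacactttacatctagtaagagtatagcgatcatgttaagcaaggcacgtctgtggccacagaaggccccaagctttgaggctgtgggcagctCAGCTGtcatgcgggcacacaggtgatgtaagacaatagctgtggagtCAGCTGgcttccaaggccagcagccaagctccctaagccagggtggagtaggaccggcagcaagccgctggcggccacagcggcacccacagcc
Myh3, chr11:67078050-67078349, plus strand: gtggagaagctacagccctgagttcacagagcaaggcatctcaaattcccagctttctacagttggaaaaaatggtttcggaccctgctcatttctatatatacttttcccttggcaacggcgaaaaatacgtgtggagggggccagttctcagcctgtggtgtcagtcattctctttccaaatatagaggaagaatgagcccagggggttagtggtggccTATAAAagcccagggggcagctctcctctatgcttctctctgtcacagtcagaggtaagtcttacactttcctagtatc
Tmod1, chr4:46038972-46039271, plus strand: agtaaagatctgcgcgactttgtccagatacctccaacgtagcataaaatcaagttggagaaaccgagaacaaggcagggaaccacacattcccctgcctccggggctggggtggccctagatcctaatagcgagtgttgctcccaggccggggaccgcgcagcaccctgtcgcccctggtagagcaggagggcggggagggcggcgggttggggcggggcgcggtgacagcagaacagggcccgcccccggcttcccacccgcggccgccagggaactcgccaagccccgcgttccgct
CAGCTG begins 249 bases before the start in Ckm, and 92 and 44 bases before it in Chrna1. TATAAA begins 29 bases before the start in Myh3. CAGCTG was present in 20 of 45 windows of the 37 matched symbols (44.4%), against 16.3% of all 32851 windows. It was found in 9 of 19 windows of adult fibre forms (47.4%) and 10 of 20 of members of both stages (50.0%). Of the windows of early forms 1 of 6 (16.7%) held it, too few for a comparison of stages. These windows include those of Myh2, Myh7, Myh8, Mybpc2 and Cacna1s, and some genes have more than 1. TATAAA was present in 15.6% of the members' windows and in 8.32% of all windows, and the MEF2 motif in 11.1% and 1.86%. No 2 of these motifs overlapped in the members' windows. A match describes these letters only.

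The members together took a small part of every library. Their share of all counts was 0.0626 to 0.1061% in KO and 0.0517 to 0.0601% in WT libraries of day 0, 0.1422 to 0.1996% in KO and 0.1762 to 0.2364% in WT libraries of day 1, and 0.1132 to 0.1644% in KO and 0.2684 to 0.3156% in WT libraries of day 4. KO and WT shares did not overlap at day 0 or day 4. Their summed signal of day 4, 1344 to 1956 in KO and 2073 to 2645 in WT libraries, was closer between the genotypes than their share. In bulk libraries, fewer cells of a type and less RNA per cell cannot be told apart, and this holds for every difference below. The most abundant member by signal was Des at days 0 and 1 in both genotypes and Ttn at day 4 in both.

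**Figure D1:**
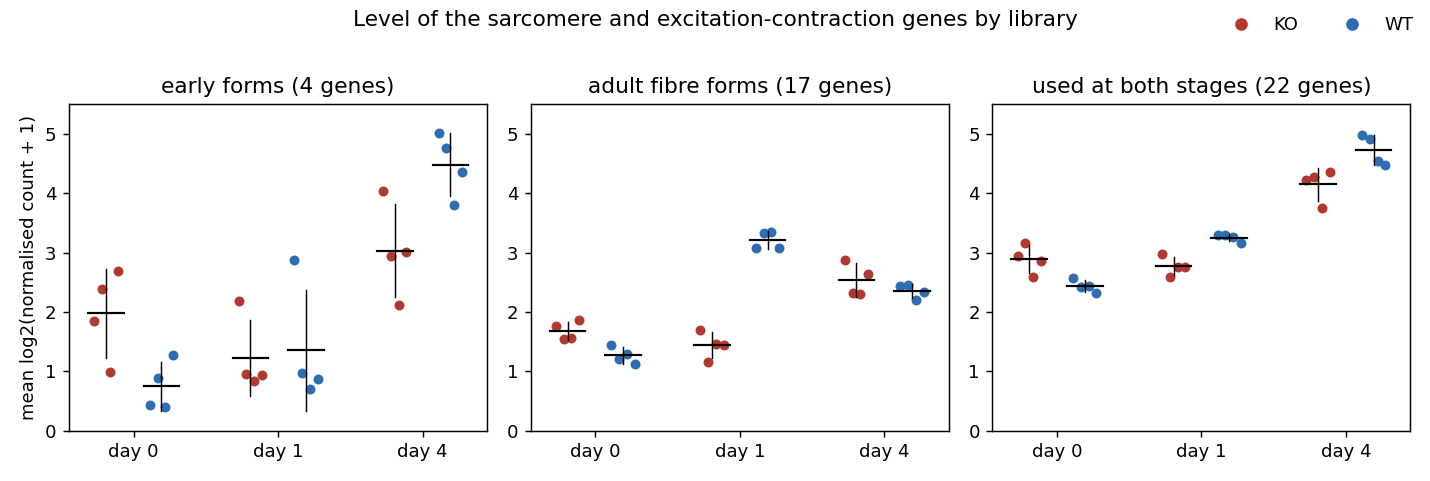
Mean log2(signal + 1) over the members of each stage, by library (points) and day after injury, KO left of WT; bars give the group mean ± SD (n = 4 libraries). Adult fibre forms of day 1 lay between 1.159 and 1.691 in KO and between 3.071 and 3.340 in WT libraries. The group mean of early forms was highest at day 4 in both genotypes, but KO libraries of day 4 overlapped those of days 0 and 1.

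The mean log2 level of the 17 adult fibre forms separated the genotypes most clearly at day 1. It was 1.548 to 1.858 in KO and 1.120 to 1.442 in WT libraries of day 0, 1.159 to 1.691 in KO and 3.071 to 3.340 in WT libraries of day 1, and 2.296 to 2.881 in KO and 2.202 to 2.450 in WT libraries of day 4. The ranges did not overlap at days 0 and 1, with KO above WT at day 0 and below it at day 1, and they overlapped at day 4. The order at day 0 depends on the measure, because the summed signal of the same 17 genes was 78.5 to 109 in KO and 97.2 to 155 in WT libraries of day 0, which overlap. The level of the 4 early forms was 0.981 to 2.688 in KO and 0.403 to 1.274 in WT libraries of day 0, 0.836 to 2.186 in KO and 0.694 to 2.870 in WT libraries of day 1, and 2.124 to 4.045 in KO and 3.807 to 5.016 in WT libraries of day 4. By this level the genotypes overlapped in early forms at every day. Taken as a share of all counts, early forms of day 4 were apart (KO at most 0.005201%, WT at least 0.007077%). So were adult fibre forms of day 4 (KO at most 0.01957%, WT at least 0.02127%). Early shares of day 0 were narrowly apart the other way (KO at least 0.0009242%, WT at most 0.0009167%), and those of day 1 overlapped.

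**Figure D2:**
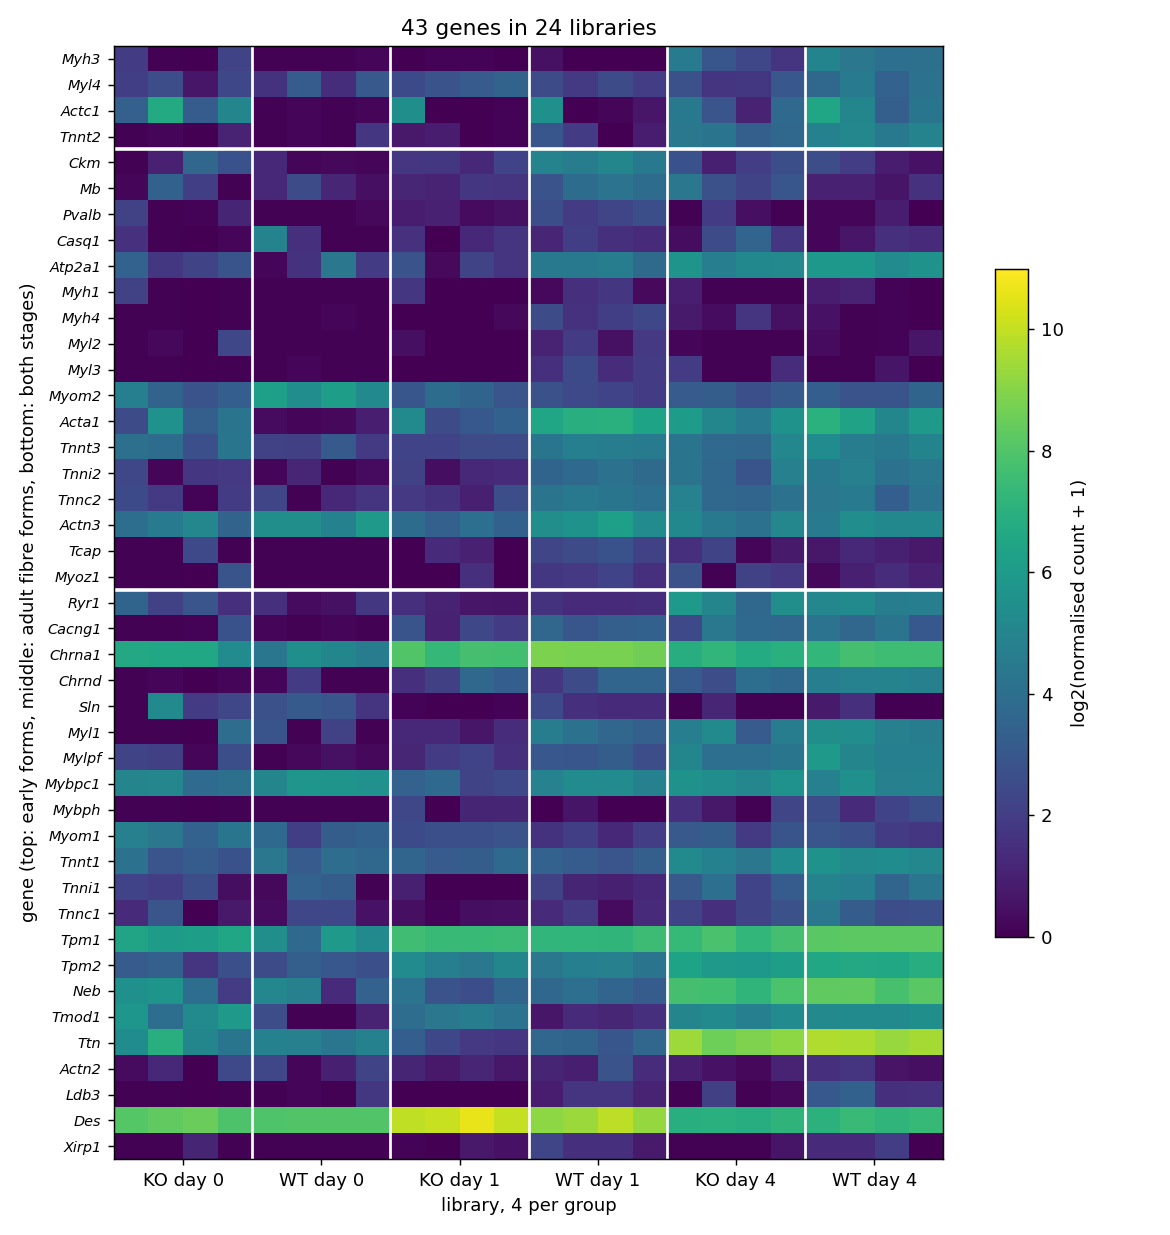
Level of each of the 43 members in each of the 24 libraries as log2(signal + 1), grouped by stage, with KO libraries left of WT libraries within each day. Titin and nebulin are high in all libraries of day 4, and adult fibre forms are higher in WT than in KO libraries of day 1.

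At day 1 after injury, most adult fibre genes were lower in KO than in WT MuSCs. Of the 43 members, 23 were lower and 4 higher (limma, adjusted p under 0.05), where 10.5% of all 16985 genes tested were lower and 12.8% higher. On the recovered counts edgeR called 18 members lower and 3 higher. With each library scaled to its own total of counts, a choice made after the data were seen, limma called 25 lower and 1 higher, where 21% of all genes were lower and 7.05% higher. The median log2 difference was -1.12 over the members (-1.11 with groups at 0 set to a floor of 3 counts per library) and -0.029 over all genes. The groups did not overlap for 21 members that were lower in KO and 4 that were higher, against 12.3% and 13.9% of all genes. By stage, 14 of 17 adult fibre forms fell in KO and 1 rose (median -1.99), 9 of 22 members of both stages fell and 3 rose (median -0.74), and none of the 4 early forms was called at this threshold, with 1 of the 4 at an unadjusted p under 0.05 in limma.

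In the thin filament, Acta1, the actin of adult skeletal muscle, had 36.7, 4.97, 7.27 and 9.54 in the KO libraries of day 1, against 89.5, 117, 125 and 82.0 in the WT libraries. Every KO library lay below every WT library, and the first KO library was well above the other KO libraries. The difference was -3.12 ± 0.51 on the log2(signal + 1) scale (SE, limma adjusted p = 0.00357). The fast troponins fell as well. Tnnt3, the tropomyosin-binding subunit of fast fibres, had 3.69, 3.58, 4.88 and 4.84 in KO against 18.3, 25.9, 23.7 and 23 in WT libraries (-2.18 ± 0.19, limma adjusted p = 0.000254). Tnni2, the inhibitory subunit, averaged 1.66 ± 1.24 in KO and 13 ± 2.24 in WT libraries, and Tnnc2, the calcium-binding subunit, 2.69 ± 1.81 in KO and 18.1 ± 2.27 in WT libraries (SD, n = 4). Slow Tnni1 was also lower, a call lost in 6 of 8 fits that left out 1 library. Tnnt1, Tnnc1, Tpm1, Tpm2 and Neb did not pass the test.

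In the thick filament, Myl1, an essential light chain of fast myosin, had 1.42, 1.32, 0.60 and 1.63 in KO against 23.3, 16.9, 11.2 and 9.43 in WT libraries of day 1 (-2.80 ± 0.33, limma adjusted p = 0.000849). The lowest WT library was above the highest KO library by a wide gap. Myh4, the fastest adult myosin heavy chain, was near its detection limit in KO, with 3 counts over the 4 libraries against 310 in WT, a ratio of 0.0110 with a counting interval of 0.00226 to 0.0326 (95%). Myl3, an essential light chain of slow muscle and heart, was at a count of 0 in every KO library and at least 14.9-fold lower than in WT, taking 3 counts per library as the floor. Intervals and floors cover counting error only. Mybpc1, the slow myosin-binding protein C, fell by 2.11, and the regulatory light chains Mylpf and Myl2 fell as well, Mylpf by 1.24 on the log2(signal + 1) scale. The call of Mylpf was lost in 2 and that of Myl2 in 5 of 8 fits that left out 1 library. Of the Myh4 transcript, 18.9% of 50-base stretches are shared with other genes, most with Myh1, and of Myl1 11.7%, so that both are uncertain in part.

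The Z-disc genes Actn3, Tcap, Myoz1, Ldb3 and Xirp1 fell too. The calls of Myoz1 and Xirp1 were each lost in 6 of 8 fits that left out 1 library. Actn3, the alpha-actinin of fast fibres, averaged 11.9 ± 2.91 in KO and 50.7 ± 15.8 in WT libraries (-1.99 ± 0.24, limma adjusted p = 0.000925). Ldb3, which binds alpha-actinin, was at a count of 0 in all KO libraries and at least 8.77-fold lower. Of the genes for excitation and calcium, Atp2a1, the calcium pump of fast fibres, averaged 3.07 ± 2.52 in KO and 19.8 ± 4.81 in WT libraries (-2.59 ± 0.51, limma adjusted p = 0.00881), and the pump inhibitor Sln, the calcium buffer Pvalb and the calcium-channel subunit Cacng1 were lower as well. The call of Cacng1 was lost in 7 of 8 fits that left out 1 library (limma adjusted p up to 0.115). Ryr1, Casq1 and Chrnd did not pass the test. Both genes of energy and oxygen fell. Ckm, the creatine kinase that restores ATP in fibres, had 2.31, 2.42, 1.43 and 3.66 in KO against 29.3, 23.7, 32.2 and 20.7 in WT libraries, a difference of -3.01 ± 0.26 (limma adjusted p = 0.000207). Mb, the oxygen-binding myoglobin, averaged 1.74 ± 0.642 in KO and 12.7 ± 4.68 in WT libraries.

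Chrna1, the acetylcholine-binding subunit of the muscle receptor, was one of the most abundant members and is not restricted to mature fibres. It had 259, 160, 216 and 205 in KO against 449, 446, 447 and 389 in WT libraries of day 1. The groups were far apart, and the difference was -1.06 ± 0.14 (limma adjusted p = 0.00134). Its receptor partner Chrnd averaged 6.46 ± 4.78 in KO and 7.33 ± 4.43 in WT libraries, with groups that overlapped.

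The 4 members higher in KO at day 1 were Tmod1, Des, Myom1 and Myom2. Tmod1 alone kept its call with libraries scaled to their totals of counts (adjusted p = 0.152 for Des, 0.0764 for Myom1 and 0.104 for Myom2 in limma), and the calls of the other 3 were lost in 6, 6 and 5 of 8 fits that left out 1 library. Tmod1, which caps the pointed ends of thin filaments, had 14.1, 19.3, 23.7 and 17.1 in KO against 0.602, 1.45, 1.29 and 1.80 in WT libraries. Each KO library was several times above the highest WT library (3.11 ± 0.27, limma adjusted p = 0.000215). Tstd2, on the opposite strand at the Tmod1 locus, averaged 12.6 in KO and 12.2 in WT libraries. Whether counting used strand is not given in the sources used here, so that reads of overlapping genes may be mixed. The same holds for members that were lower in KO. Rabep2, opposite Atp2a1, averaged 6.29 in KO and 12.2 in WT libraries of day 1, and Ube2c, opposite Tnnc2, 3.33 in KO and 5.5 in WT. Pth1r, opposite Myl3, ran the other way, with 9.25 in KO and 0.985 in WT.

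Des, which encodes desmin, had 975, 1066, 1585 and 1049.6 in KO against 553, 657, 961 and 603 in WT libraries of day 1. The lowest KO library was just above the highest WT library (0.76 ± 0.21, limma adjusted p = 0.0292). The call was lost without any one of KO replicates 2, 3 and 4 or WT replicates 1, 2 and 4, with adjusted p up to 0.0840, and under quantile normalization the difference was 0.31 (limma adjusted p = 0.312). The M-band genes Myom2 and Myom1 were higher by 1.00 and 0.94 (limma adjusted p = 0.0457 and 0.0323). The call of Myom2 was lost without any one of KO replicates 2 and 3 or WT replicates 2, 3 and 4 (up to 0.117) and with a replicate block, and that of Myom1 without KO replicates 2, 3 or 4 or WT replicates 1, 3 or 4 (up to 0.0757). Myl12a, which overlaps Myom1 on the opposite strand, averaged 2075 in KO and 1586 in WT libraries.

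The 16 members not called at day 1 included the early forms. Actc1, the cardiac actin that immature skeletal muscle also makes, had 43.1, 0.0240, 0.0261 and 0.0802 in KO against 44.4, 0.0229, 0.117 and 0.566 in WT libraries. One library of each genotype, replicate 1 in both, carried nearly all of its signal. Myh3, the embryonic myosin heavy chain, was at or near a count of 0 in both genotypes, with 2 counts in KO and 9 in WT libraries. Tnnt2, the cardiac troponin T, averaged 0.398 ± 0.401 in KO and 2.59 ± 3.03 in WT libraries. Myl4, the embryonic and atrial light chain, averaged 7.25 ± 2.48 in KO and 3.84 ± 1.15 in WT libraries (0.75 ± 0.30, limma adjusted p = 0.112). Ttn, titin itself, was 2.38 to 8.80 in KO and 6.68 to 11.6 in WT libraries, and the groups overlapped (-1.11 ± 0.38, limma adjusted p = 0.0643). Actn2, Myh1 and Mybph were also not called.

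**Figure D3:**
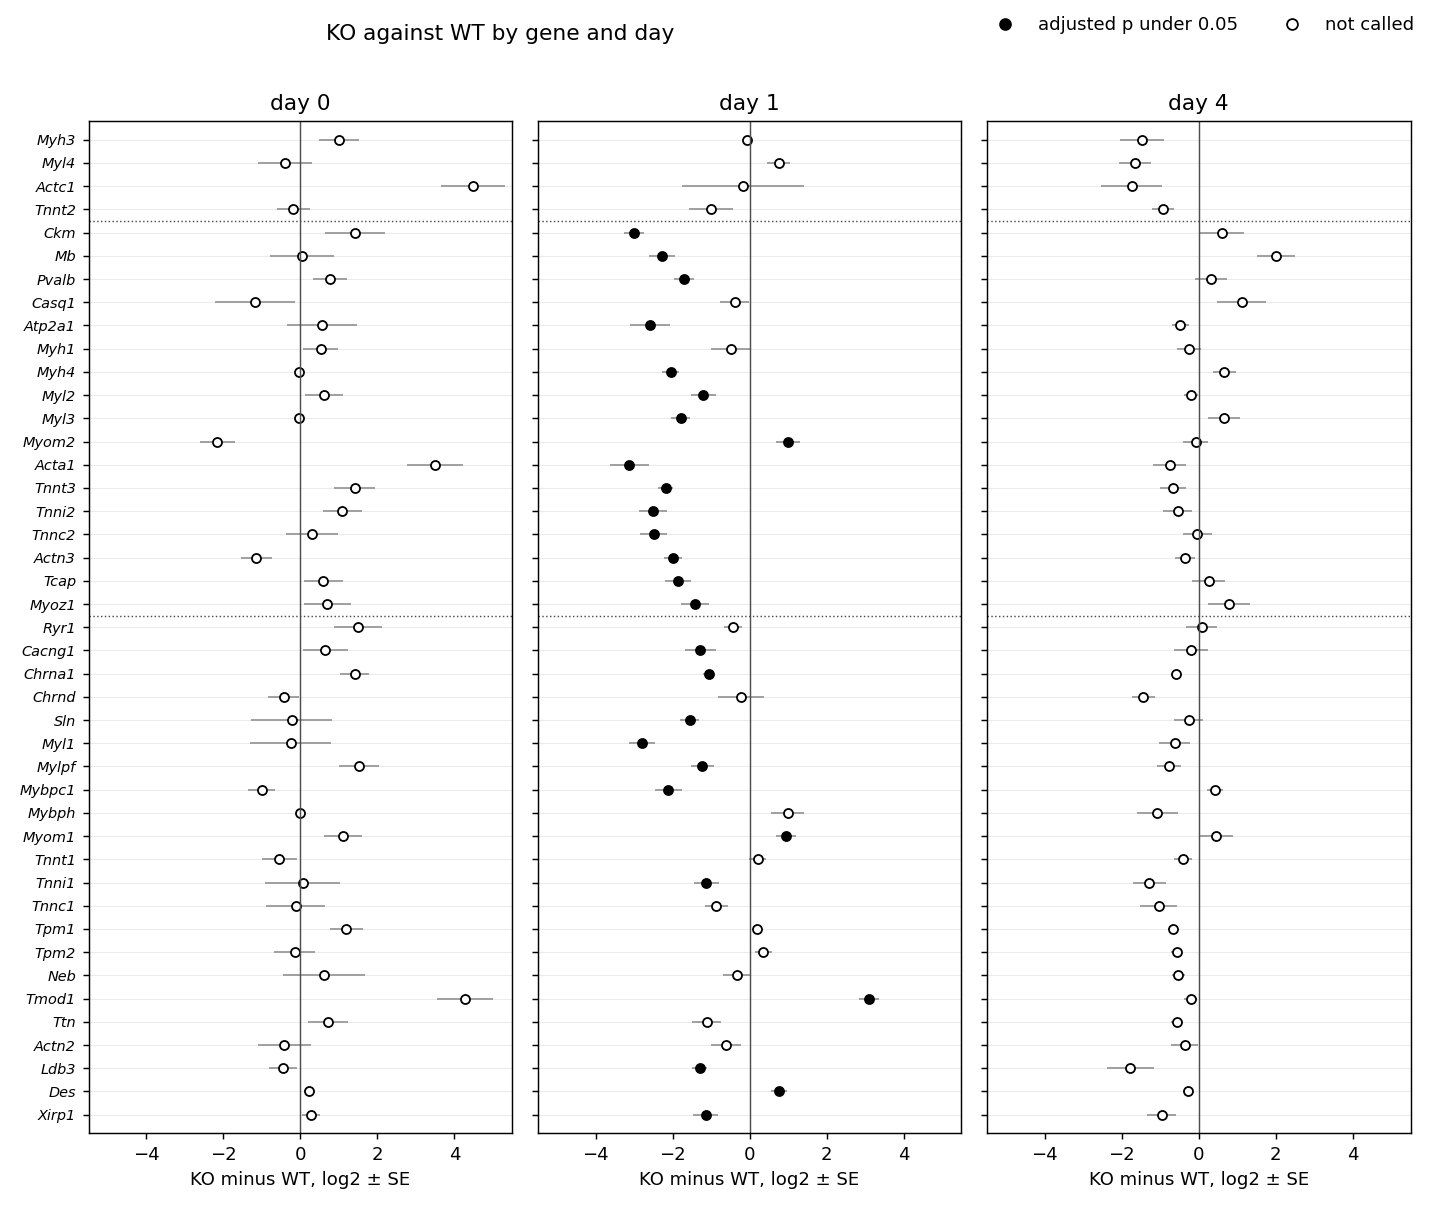
Log2 difference, KO minus WT, of each member at days 0, 1 and 4 with its SE; filled points have a limma adjusted p under 0.05, and members are grouped as early, adult fibre and both-stage forms. At day 1 the filled points run from -3.12 (Acta1) to 3.11 (Tmod1), and at days 0 and 4 no point is filled.

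Other genes of the same apparatus were called in both directions at day 1, where 10.5% of all genes tested were lower in KO and 12.8% higher. Of 33 further sarcomere genes, 10 were lower and 3 higher in KO. Myot, a Z-disc protein, was at a count of 0 in all KO libraries and averaged 4.55 ± 2.47 in WT, and Ankrd1, a titin-binding stress-response protein, averaged 66.1 ± 10.6 in KO and 233 ± 38.3 in WT libraries (-1.80 ± 0.15, limma adjusted p = 0.000156). Flnc, muscle filamin, was higher, with 324 ± 47.2 in KO and 104 ± 12.2 in WT libraries (1.63 ± 0.12, limma adjusted p = 0.000115). Of 24 further excitation-contraction genes, 4 were lower and 4 higher. The receptor genes Chrnb1 and Rapsn, which encode a subunit and the clustering protein, were lower by 0.58 and 0.66 on the log2 scale, while Musk, the kinase that organises the endplate, was higher by 1.02. Of 15 further fibre metabolism genes, 3 (Ckmt2, Cox6a2 and Pgam2) were lower. Of 20 myogenic regulators and fusion genes, 5 rose and 3 fell in KO. Pax7 averaged 32.0 ± 3.7 in KO and 85.3 ± 10.1 in WT libraries, and Igf2 70.8 ± 7.18 in KO and 15.6 ± 2.67 in WT libraries.

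Markers of other cell types also differed at day 1, where 10.5% of all genes tested were lower in KO and 12.8% higher. Of 14 markers of fibro-adipogenic cells, 4 were higher in KO (Col1a1, Col3a1, Gsn and Cxcl14). The 14 markers summed to 1733 to 2496 in KO and 883 to 1270.0 in WT libraries. Their mean log2 level overlapped, at 3.190 to 4.940 in KO and 3.010 to 3.457 in WT libraries. Of 12 smooth muscle and pericyte markers, 5 were higher and 1 lower, and they summed to 419 to 509 in KO libraries, against 276 to 350 in WT libraries, and Myh11 was at a count of 0 throughout WT. The 20 macrophage and monocyte markers summed to 17.4 to 28.1 in KO and 9.56 to 32.6 in WT libraries, with Fcgr1, Ccr2 and Cx3cr1 at a count of 0 throughout KO. Endothelial sums were 16.2 to 23.4 in KO and 23.9 to 40.5 in WT libraries, with Kdr at 0 throughout WT. Schwann cell sums were 144 to 176 in KO and 183 to 242 in WT libraries, with Sox10 and Cdh19 at 0 in both. The mean log2 levels of endothelial and of Schwann cell markers overlapped between the genotypes. Quiescence markers were unequal too, with 6 of 12 lower and 3 higher in KO. The part of any of these in the members' difference was not tested. RNA of fibre fragments and RNA made by the MuSCs cannot be told apart in these values.

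In uninjured muscle no member passed the test between KO and WT MuSCs in limma, where 0.200% of all genes were higher and 0.200% lower, and 11 members had an unadjusted p under 0.05. One limma model over all 24 libraries called 8 higher and 2 lower, a stricter filter 3 higher, edgeR 1 higher, and DESeq2 3 higher and 1 lower. The groups did not overlap for 4 members higher in KO (Actc1, Tmod1, Acta1 and Tpm1) and 1 lower (Myom2), against 3.23% and 3.74% of all genes.

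Actc1 had 9.39, 105, 8.09 and 32.5 in KO libraries of day 0, against 0.0344, 0.109, 0.0385 and 0.0997 in WT libraries. The KO libraries held 2109 counts and the WT libraries 2, a ratio of 1021 with a counting interval of 282 to 8438, and the limma adjusted p, which takes in the spread between libraries, was 0.0685. Acta1 had 4.68, 46.6, 8.97 and 17.9 in KO against 0.241, 0.109, 0.192 and 0.897 in WT libraries (limma adjusted p = 0.0966). The second KO library was the highest for both actins. Tmod1 had 53.3, 14.7, 36.2 and 60.4 in KO against 5.12, 0.0365, 0.0385 and 1.10 in WT libraries (4.28 ± 0.74, limma adjusted p = 0.0593). Myom2 ran the other way, with 25.7, 10.3, 5.99 and 8.72 in KO against 72.7, 41.3, 69.9 and 36.0 in WT libraries (limma adjusted p = 0.0994). Des was close in level. It was 246 to 360 in KO libraries, against 251 to 255 in WT libraries, and the difference was not called (0.22 ± 0.13, limma adjusted p = 0.575). Of the early forms, Myh3 had 2.754, 0.0358, 0.0276 and 3.79 in KO against 0.0344, 0.0365, 0.0385 and 0.0997 in WT libraries of day 0 (0.99 ± 0.52, limma adjusted p = 0.512). Its 82 counts in KO came from 2 of the 4 libraries, with 41 in each, and the WT libraries held 1. Tnnt2 averaged 0.305 ± 0.498 in KO and 0.636 ± 1.15 in WT libraries (-0.18 ± 0.42, limma adjusted p = 0.912), and Myl4 3.27 ± 1.97 in KO and 4.81 ± 3.39 in WT libraries (-0.40 ± 0.69, limma adjusted p = 0.871). Ttn was 18.2 to 123 in KO and 18.7 to 27.7 in WT libraries (0.72 ± 0.52, limma adjusted p = 0.651), with the second KO library far above the others. Ckm was 0.0332 to 11.3 in KO and 0.0997 to 1.41 in WT libraries (1.42 ± 0.77, limma adjusted p = 0.526). Other members were at the floor. Myh1, Myl2, Tcap, Myoz1 and Xirp1 were at a count of 0 in every WT library, Myh4, Myl3 and Ldb3 in every KO library, and Mybph in all libraries of day 0. Outside the members, Mrln, which encodes the micropeptide myoregulin that inhibits the calcium pump, was higher, with 62.1 ± 15.5 in KO and 17.4 ± 1.27 in WT libraries (1.74 ± 0.24, limma adjusted p = 0.0296). Sums of fibro-adipogenic markers at day 0 were 2165 to 2620 in KO and 965 to 1304 in WT libraries. Pdgfra was at a count of 0 throughout WT. The mean log2 level of these markers overlapped, at 4.120 to 4.825 in KO and 3.237 to 4.396 in WT libraries. The part of these markers in the differences of day 0 was not tested.

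**Figure D4:**
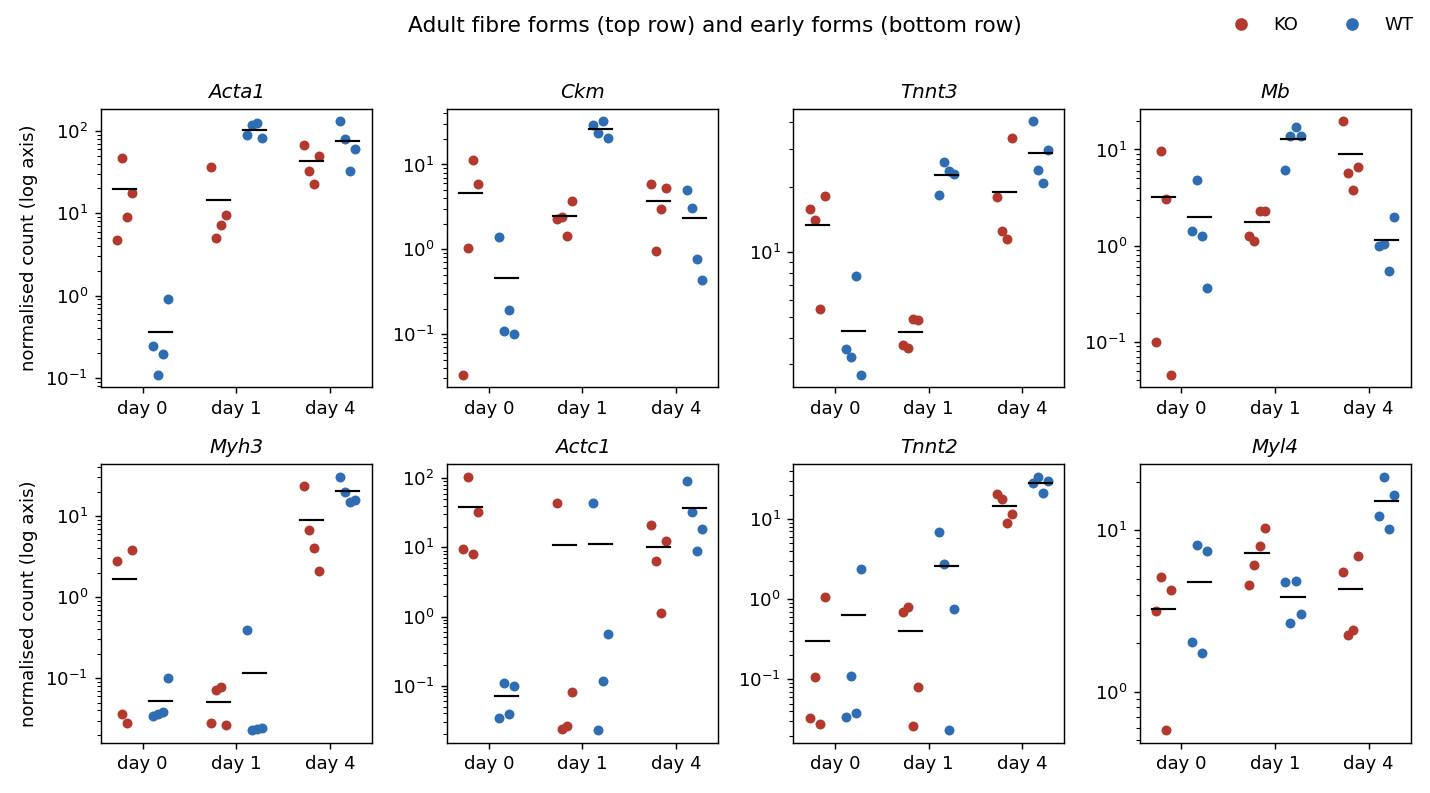
Signal of 4 adult fibre forms (upper row) and the 4 early forms (lower row) in every library on a log axis, KO left of WT within each day; black bars are arithmetic means of 4 libraries. Acta1 and Ckm in WT libraries peak or plateau from day 1, while Myh3 and Tnnt2 are highest at day 4 and, before it, lie at or near a count of 0 in most but not all libraries.

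At day 4 after injury no member passed the test between KO and WT MuSCs in limma, where 0.459% of all genes tested were above WT in KO and 0.294% below it, and 15 members had an unadjusted p under 0.05. DESeq2 called 1 member higher and 7 lower, edgeR none, a stricter filter 3 lower and library weights 1 lower. With each library scaled to its own total of counts, limma called 1 member higher (Mb) and 18 lower, among them Ttn, Neb, Tpm1, Tpm2, Chrna1, Chrnd, Des, Myh3, Tnnt2 and Myl4, where 16% of all genes were lower and 0.424% higher and the median of all genes moved by -0.45. Whether these members differ at day 4 thus depends on the scaling. The groups did not overlap for 1 member higher in KO (Mb) and 6 lower (Tpm1, Tpm2, Chrna1, Chrnd, Myl4 and Tnnt2), against 3.84% and 3.86% of all genes. The median difference was -1.57 for early forms, -0.04 for adult fibre forms and -0.57 for members of both stages.

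The early forms were at their highest at this day in WT libraries. Myh3 had 23.1, 6.78, 4.00 and 2.11 in KO against 30.4, 19.7, 15 and 15.7 in WT libraries of day 4. One KO library lay within the WT range and the other 3 below it (-1.47 ± 0.56, limma adjusted p = 0.327). Tnnt2 had 20.4, 17.6, 8.91 and 11.6 in KO against 27.8, 33.5, 20.7 and 29.3 in WT libraries, so that the highest KO library was just under the lowest WT library (-0.93 ± 0.28, limma adjusted p = 0.214). Myl4 had 5.54, 2.26, 2.42 and 6.98 in KO against 12.2, 21.4, 10.1 and 16.6 in WT libraries (-1.66 ± 0.41, limma adjusted p = 0.119). Actc1 spread most, with 21, 6.45, 1.13 and 12.4 in KO against 90.8, 32.2, 8.93 and 18.5 in WT libraries (-1.75 ± 0.79, limma adjusted p = 0.413). Within each genotype replicate 1 was the highest library and replicate 3 the lowest for Actc1.

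Among the long proteins of the sarcomere, Ttn had 662, 383, 469 and 552 in KO against 826, 810, 638 and 741 in WT libraries of day 4 (-0.57 ± 0.16, limma adjusted p = 0.178), and Neb, the giant protein along the thin filament, averaged 199 ± 38.9 in KO and 286 ± 42.8 in WT libraries. Ranges overlapped for both. Des had 123, 124, 113 and 143 in KO against 131, 170, 148 and 166 in WT libraries (-0.29 ± 0.12, limma adjusted p = 0.362). Acta1 averaged 42.9 ± 19.8 in KO and 75.7 ± 41.4 in WT libraries (-0.75 ± 0.42, limma adjusted p = 0.519), and Ckm 3.75 ± 2.24 in KO and 2.33 ± 2.16 in WT libraries (0.60 ± 0.57, limma adjusted p = 0.72). The ranges of these 3 overlapped as well. Tpm1, a tropomyosin, had 163, 228, 153 and 217 in KO against 291, 297, 303 and 298 in WT libraries, without overlap (-0.66 ± 0.13, limma adjusted p = 0.0612). The receptor subunit Chrnd averaged 10.1 ± 4.40 in KO and 27.1 ± 1.68 in WT libraries (-1.44 ± 0.31, limma adjusted p = 0.0819). Mb stood apart, with 19.6, 5.63, 3.79 and 6.59 in KO against 1.00, 1.04, 0.546 and 1.98 in WT libraries (2.01 ± 0.49, limma adjusted p = 0.116). Apol6, which overlaps Mb on the opposite strand, averaged 3.6 in KO and 3.24 in WT libraries. Among the myogenic regulators, Mymk, the membrane protein required for myoblast fusion, was lower in KO, with 6.88 ± 5.78 against 49.2 ± 12.6 in WT libraries (-2.95 ± 0.49, limma adjusted p = 0.0252).

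Scaled to the joined length of all annotated exons of each gene in GENCODE M21, the isoform pairs can be set beside each other at day 4. That length can exceed the length of the transcript made. Skeletal Acta1 had 27.9 signal per kb in KO and 49.3 in WT libraries, and cardiac Actc1 6.33 in KO and 23.2 in WT libraries. Fast Tnnt3 had 11.9 per kb in KO and 18.1 in WT, slow Tnnt1 13.9 in KO and 18.1 in WT, and cardiac Tnnt2 1.89 in KO and 3.59 in WT. The embryonic heavy chain Myh3 had 1.49 per kb in KO and 3.33 in WT, and adult Myh4 0.156 in KO and 0.0249 in WT. The embryonic light chain Myl4 had 0.927 per kb in KO and 3.25 in WT libraries, below Myl1, which is used at both stages, with 11.3 in KO and 16.1 in WT. The light chains counted as adult fibre forms were below Myl4. Myl3 had 0.543 per kb in KO and 0.0789 in WT, and Myl2 0.0289 in KO and 0.124 in WT. Mylpf, counted among members of both stages, was above Myl4, with 18.9 per kb in KO and 33.5 in WT. Myl2 and Mylpf are regulatory light chains and not isoforms of Myl4. On this scale the adult or slow forms of actin and troponin T were above the cardiac ones in both genotypes. Of the adult fibre forms, Myh4 was below embryonic Myh3, and Myl3 and Myl2 were below embryonic Myl4. The gap between Tnnt3 and Tnnt2 depends on the lengths used, 1583 and 7752 bases. Without them, Tnnt3 averaged 18.8 in KO and 28.7 in WT libraries, and Tnnt2 14.6 in KO and 27.8 in WT libraries.

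In WT libraries most adult fibre forms were called higher at day 1 than at day 0, and early forms were called only at day 4. At day 1 against day 0, 22 members rose and 3 fell (limma, adjusted p under 0.05), where 26.7% of all genes rose and 23.2% fell. By stage, 13 of 17 adult fibre forms rose and 1 fell, 9 of 22 members of both stages rose and 2 fell, and 0 of the 4 early forms were called in limma, with 0 at an unadjusted p under 0.05. Acta1 rose by 6.28 ± 0.30 (limma adjusted p = 4.53e-06), Ckm by 4.31 ± 0.38 (5.22e-05), Chrna1 by 3.88 ± 0.24 (1.12e-05) and Tnni2 by 3.38 ± 0.37 (0.000144). The adjusted p of the early forms was 0.279 for Tnnt2, 0.304 for Actc1, 0.631 for Myh3 and 0.903 for Myl4 (limma). WT replicate 1 of day 1 nevertheless held 1068 counts of Actc1 and 163 of Tnnt2. Desmin rose by 1.42 ± 0.16 (limma adjusted p = 0.000208). Titin fell by 1.26 ± 0.26 (limma adjusted p = 0.00398) and Myom2 by 3.40 ± 0.32 (6.79e-05).

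At day 4 against day 1 in WT, 20 members rose and 12 fell, where 38.3% of all genes rose and 31.1% fell. All 4 early forms rose and 9 of 17 adult fibre forms fell, while 3 adult fibre forms rose. Of members of both stages, 13 of 22 rose and 3 fell. Ttn rose by 6.12 ± 0.16 (limma adjusted p = 2.65e-10), Neb by 4.53 ± 0.18 (2.79e-09), Myh3 by 4.21 ± 0.29 (1.21e-07), Tmod1 by 4.11 ± 0.24 (3.06e-08), Tnnt2 by 3.40 ± 0.51 (7.84e-05) and Myl4 by 1.71 ± 0.28 (0.000188). Actc1 rose by 3.21 ± 1.07 (limma adjusted p = 0.0178), a call lost without any one of WT replicates 2, 3 and 4 of day 1 or replicate 1 of day 4. Ckm fell by 3.27 ± 0.41 (limma adjusted p = 2.06e-05), Mb by 2.64 ± 0.34 (2.27e-05), Des by 2.14 ± 0.16 (2.21e-07) and Chrna1 by 1.2 ± 0.11 (1.46e-06). Acta1 was 75.7 ± 41.4 at day 4 and 104 ± 21 at day 1 (-0.59 ± 0.32, limma adjusted p = 0.121).

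Against day 0, WT MuSCs of day 4 had 28 members higher and 3 lower, where 22.8% of all genes rose and 17.2% fell. All 13 thin filament members rose, as did all 4 early forms, 7 of 17 adult fibre forms and 17 of 22 members of both stages. Among the thin filament members the call of Tnnc1 was lost in 6 of 8 fits that left out 1 library (adjusted p up to 0.126 in limma) and that of Tnni1 in 5 of 8 (up to 0.0818). Myh3 had 1248 counts over the 4 libraries of day 4 and 1 count over those of day 0, a ratio of 1110 with a counting interval of 199 to 43874. Actc1 had 2242 counts at day 4 and 2 at day 0, a ratio of 997 with an interval of 276 to 8237. Acta1 rose by 5.68 ± 0.46 (limma adjusted p = 1.04e-05), Ttn by 4.86 ± 0.16 (5.82e-08), Mylpf by 4.85 ± 0.40 (1.3e-05) and Tnnt2 by 4.33 ± 0.48 (8.31e-05). Myl4 rose by 1.63 ± 0.51 (limma adjusted p = 0.0274), a call lost without any one of WT replicates 1 and 3 of day 0 or 1, 2 and 4 of day 4. Des fell by 0.72 ± 0.11 (limma adjusted p = 0.000763), but under quantile normalization its difference was 0.23. Myom2 fell by 2.61 ± 0.32 (limma adjusted p = 0.00016), and Ckm was not called (1.04 ± 0.50, limma adjusted p = 0.124). Outside the members, the fusion gene Mymk, the myogenic regulator Myog and the fetal receptor subunit gene Chrng also rose.

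In KO MuSCs of day 1 against day 0, 5 members rose (Des, Chrnd, Chrna1, Tpm2 and Tpm1) and 6 fell, where 21.3% of all genes rose and 18.6% fell. Of the 17 adult fibre forms 0 rose in limma and 1, Tnnt3, fell, and Tnnt3 was also the 1 adult fibre form with an unadjusted p under 0.05. Its fall, by 1.35 ± 0.43 (limma adjusted p = 0.0358), lost its call in 7 of 8 fits that left out 1 library (adjusted p up to 0.0905). Acta1 differed by -0.34 ± 0.77 (limma adjusted p = 0.753) and Ckm by -0.12 ± 0.76 (0.911). Des rose by 1.95 ± 0.18 (limma adjusted p = 9.64e-05), Tpm2 by 2.14 ± 0.42 (0.00394), Chrna1 by 1.41 ± 0.31 (0.00649) and Tpm1 by 1.21 ± 0.13 (0.000211). Ttn fell by 3.09 ± 0.60 (limma adjusted p = 0.00379), Myom1 by 1.56 ± 0.36 (0.00906) and Mybpc1 by 1.54 ± 0.47 (0.03), the last a call lost in 4 of 8 fits that left out 1 library. None of the early forms was called in limma, with adjusted p of 0.0952 for Actc1, 0.144 for Myl4, 0.157 for Myh3 and 0.768 for Tnnt2, and Actc1 alone had an unadjusted p under 0.05 (0.045). Leaving out a library gave 7 to 13 calls. The count was 7 without KO replicate 3 or without KO replicate 4 of day 1.

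**Figure D5:**
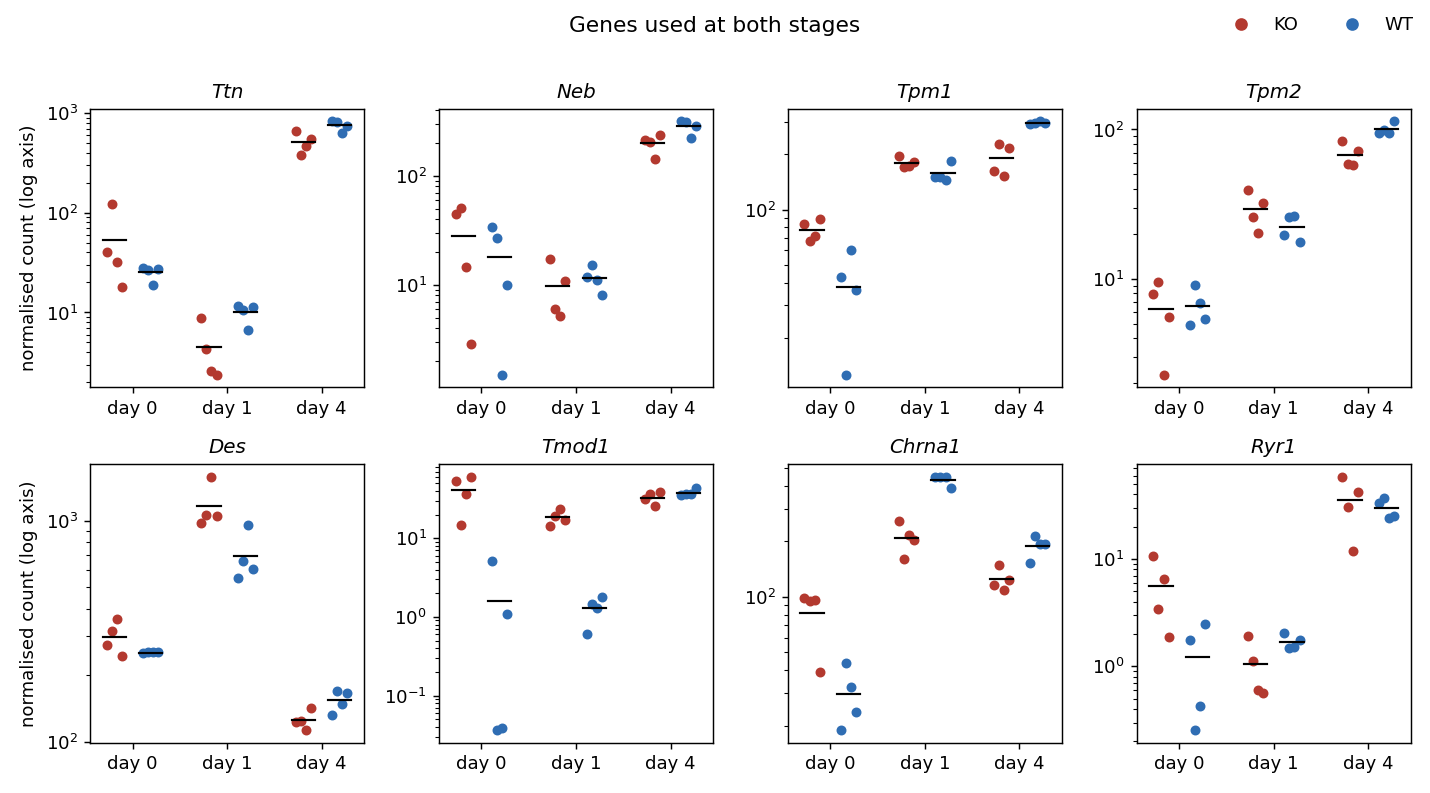
Signal of 8 members used at both stages in every library on a log axis, KO left of WT within each day; black bars are arithmetic means of 4 libraries. Ttn and Neb are highest at day 4 in both genotypes, Des at day 1 in both, and Tmod1 is low in WT libraries until day 4 but not in KO libraries.

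At day 4 against day 1 in KO, 21 members rose and 2 fell (Des and Chrna1), where 27.7% of all genes rose and 25.7% fell. Of 17 adult fibre forms 7 rose and none fell, and 11 of 13 thin filament members rose. Ttn rose by 6.66 ± 0.33 (limma adjusted p = 1.28e-07), Neb by 4.32 ± 0.33 (2.1e-06), Ryr1, the calcium-release channel, by 4.01 ± 0.48 (5.8e-05) and Tnnt2 by 3.46 ± 0.40 (4.31e-05). Myh3 rose as well, with 466 counts at day 4 and 2 at day 1, a ratio of 325 with a counting interval of 89.5 to 2694. Actc1 (1.64 ± 1.2, limma adjusted p = 0.272), Myl4 (-0.70 ± 0.42, 0.187) and Ckm (0.34 ± 0.46, 0.558) were not called. Acta1 rose by 1.77 ± 0.54 (limma adjusted p = 0.0182), a call lost without any one of KO replicates 2 and 3 of day 1 or 1 and 4 of day 4. Des fell by 3.18 ± 0.15 (limma adjusted p = 1.27e-07). Chrna1 fell by 0.74 ± 0.16 (limma adjusted p = 0.00327), but under quantile normalization its difference was 0.31.

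Against day 0, KO MuSCs of day 4 had 14 members higher and 2 lower, where 13.8% of all genes rose and 13.3% fell. Tnnt2 was the only one of the 4 early forms called (3.58 ± 0.50, limma adjusted p = 0.000547), and 3 of 17 adult fibre forms (Tnnc2, Tnni2 and Atp2a1) rose. Ttn rose by 3.58 ± 0.47 (limma adjusted p = 0.000349), Tpm2 by 3.35 ± 0.39 (0.000175) and Neb by 3.34 ± 0.69 (0.00548). Des fell by 1.23 ± 0.16 (limma adjusted p = 0.000358) and Myom1 by 1.47 ± 0.46 (0.04), a call lost in 7 of 8 fits that left out 1 library. Myh3 (1.81 ± 0.78, limma adjusted p = 0.113), Acta1 (1.43 ± 0.61, 0.111), Actc1 (-1.54 ± 0.89, 0.229), Myl4 (0.37 ± 0.59, 0.685) and Ckm (0.22 ± 0.81, 0.868) were not called. Macrophage markers summed to 1255 to 1370 in KO and 1395 to 1877 in WT libraries of day 4, where all 20 rose against day 1 in both genotypes, and their part in the members' values at day 4 was not tested. A scaling that sets all libraries to one distribution of values moved the median of all genes by -0.18 to -0.25 in the 4 comparisons of day 4 with an earlier day, and the changes named here are given without that shift. Scaling to library totals moved that median by -0.45 for KO against WT at day 4, by -0.16 at day 1, by -0.19 for day 4 against day 0 in KO and by 0.27 in WT, by 0.12 for day 1 against day 0 in WT, and by -0.22 to -0.51 for the changes of the difference.

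The change of the KO minus WT difference between days was tested in its own right, with the same libraries as the comparisons above. Between days 0 and 1 the difference moved down for 11 members and up for 1, where 3.08% of all genes moved down and 6.17% up. It moved by -6.62 ± 0.85 for Acta1 (limma adjusted p = 0.000174), by -4.43 ± 0.88 for Ckm (0.00439), by -3.6 ± 0.68 for Tnni2 (0.00327) and by -3.58 ± 0.54 for Tnnt3 (0.000577). For these 4 the mean of KO was above that of WT at day 0 and below it at day 1. Myom2 moved up by 3.15 ± 0.58 (limma adjusted p = 0.00262). The early forms, Ttn and Des were not called, with adjusted p of 0.111 to 0.581.

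Between days 1 and 4 the difference moved up for 15 members and down for 5, where 2.64% of all genes moved up and 6.33% down. Of the 15, 13 were adult fibre forms, out of 17. Some of these calls were lost in fits that left out 1 library. The call was lost in 13 of 16 such fits for Myoz1, 9 for Acta1, 6 for Tnni2, 5 for Tnnt3 and 2 for Tcap. It moved by 4.29 ± 0.59 for Mb (limma adjusted p = 0.000154), 3.61 ± 0.65 for Ckm (0.00157), 2.53 ± 0.42 for Mybpc1 (0.000743) and 2.45 ± 0.52 for Tnnc2 (0.00507). One limma model over all 24 libraries called 9 members in place of 20, and scaling to library totals 14 up and 8 down. The 5 that moved down were Tmod1 (-3.32 ± 0.33, limma adjusted p = 3.74e-06), Myl4 (-2.41 ± 0.50, 0.00496), Des (-1.04 ± 0.23, 0.00779), Tpm2 (-0.93 ± 0.28, 0.0426) and Tpm1. The call of Tpm2 was lost in 11 of 16 fits that left out 1 library. Between days 0 and 4 the difference moved down for 5 members (Actc1, Tmod1, Acta1, Chrna1 and Tpm1), where 0.583% of all genes moved down and 0.795% up. The call of Tpm1 was lost in 13 of 16 fits that left out 1 library (adjusted p up to 0.0978 in limma). Scaling to library totals gave 10 members that moved down, where 5.63% of all genes moved down. The fit for Actc1 rests on 2 counts in the WT libraries of day 0.

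Over the 6 group means, the genes outside the list with the pattern most like the mean of the 4 early forms were Prc1 (Pearson r = 0.986), Ccdc34 (0.980) and Sestd1 (0.973), out of 8525 genes with a mean of at least 8. Prc1, a protein of the central spindle in cell division, averaged 30.9 in KO and 72.3 in WT libraries of day 4. Those most like the mean of the 17 adult fibre forms were Trappc11 (r = 0.982), Taf2 (0.976) and Hook2 (0.973). Trappc11, a subunit of a vesicle-tethering complex, averaged 6.49 in KO and 19.4 in WT libraries of day 1. The 6 points share their libraries and their scaling, and the values only describe these groups.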

How the data were processed

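Bulk RNA sequencing covered 24 libraries of mouse MuSCs, prepared, per the labels' protocols, with a SMART-Seq v4 kit. FastQC, STAR, RSEM, limma and the build mm39 are named in the submitters' processing notes; versions, annotation and use of strand are not given in the sources used here. The authors deposited a linear normalised signal per gene. Tested on the table, 100% of values were whole to within 0.02 once multiplied by a scaled library size (in M reads) and reduced by 0.5; edgeR and DESeq2 were run on the counts so recovered, as alternatives.

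The 43 members and their lists were chosen with earlier results of these data known. The 16985 genes at or above a signal of 1 in 4 or more of the 24 libraries were tested with limma 3.58.1 (R 4.3.3, mean-variance trend) on log2(signal + 1), whose fold changes understate changes of low genes. Each of 12 comparisons was fitted on the libraries of its own groups (8, or 16 for changes of a difference), two-sided, with Benjamini-Hochberg adjustment over all genes and a threshold of 0.05. The scripts were tested on simulated data with known changes. For KO against WT, 16.7% of 4-fold changes were found at day 0, 51.5% at day 1 and 47.0% at day 4. Of 2-fold changes, 0.0%, 16.4% and 13.4% were found at these days. For day 1 against day 0 in KO, 22.7% of 4-fold changes were found. Members not called may therefore still differ. Groups came from the labels, and comparisons share libraries.

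Members named per comparison were up to 4 members in each direction with the largest change among those called, with groups that did not overlap and a mean of at least 8, and the 4 early forms, Acta1, Ttn, Des and Ckm, some of them by adjusted p alone where not called. Other genes were named by the smallest adjusted p, up to 3 per list. Members outside this rule were named after their values were seen. Same-numbered replicates were not treated as pairs. Alternatives were edgeR 4.0.16, DESeq2 1.42.0, a model over all libraries, no trend, library weights, other filters, quantile normalization, pseudocounts of 0.5 and 5, a replicate block, leaving out each library and, chosen after the data were seen, scaling each library to its total of counts, since the factors behind the deposited signal differ between groups.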

Additional observations from a re-analysis of the deposited data

Results flagged for a closer look

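In 11 of 66 groups examined, a single library lay far from the other 3 of its group by Dixon's ratio. Chance gives about 1 in 20 groups only for independent values with a normal spread. Some flagged values lie at or near a count of 0, and the flagged levels of early forms repeat Actc1. The number flagged is therefore not read against that rate. Actc1 was 43.1 in KO replicate 1 of day 1, with the other 3 between 0.0240 and 0.0802, and 44.4 in WT replicate 1 of day 1, with the others between 0.0229 and 0.566. The mean log2 level of the early forms was accordingly 2.186 in KO replicate 1 and 2.870 in WT replicate 1 of day 1. Myh3 was 0.395 in WT replicate 1 of day 1 and 0.0997 in WT replicate 4 of day 0. Tnnt2 was 1.05 in KO replicate 4 and 2.36 in WT replicate 4 of day 0, with the other libraries of each group at most 0.109. Ttn was 18.7 in WT replicate 3 of day 0, below the others, and 6.68 in WT replicate 3 of day 1, also below the others. Ckm was 1.41 in WT replicate 1 of day 0, against at most 0.192 in the others.

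The KO minus WT difference changed between days for these members, tested as a change of the difference in limma. Between days 0 and 1 it changed by -6.62 for Acta1 (adjusted p = 0.000174), -4.43 for Ckm (0.00439), -3.6 for Tnni2 (0.00327), -3.58 for Tnnt3 (0.000577) and 3.15 for Myom2 (0.00262). Between days 0 and 4 it changed by -6.24 for Actc1 (adjusted p = 0.00887), -4.49 for Tmod1 (0.00295), -4.25 for Acta1 (0.00962) and -2.0 for Chrna1 (0.0167). Between days 1 and 4 it changed by 4.29 for Mb (adjusted p = 0.000154), 3.61 for Ckm (0.00157), 2.53 for Mybpc1 (0.000743), 2.45 for Tnnc2 (0.00507) and 2.37 for Acta1 (0.0319). In the same interval it changed by -3.32 for Tmod1 (adjusted p = 3.74e-06), -2.41 for Myl4 (0.00496), -1.04 for Des (0.00779) and -0.93 for Tpm2 (0.0426). The calls of Acta1 and Tpm2 between days 1 and 4 were lost in 9 and 11 of 16 fits that left out 1 library.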

How the results depend on the processing

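Counts of called members stayed within 1.5 times of the values above under 130 of 144 pairs of comparison and alternative that kept all libraries. In uninjured muscle KO against WT gave 0 calls, and 10 with one model over all libraries, 3 with a stricter filter, 1 with edgeR and 4 with DESeq2. At day 4 it gave 0, and 1 with library weights, 3 with a stricter filter, 8 with DESeq2 and 19 with scaling to library totals, and 0 to 1 without 1 library (1 without KO replicate 2). Day 1 against day 0 in KO gave 11, and 7 to 13 without 1 library. The change of the difference between days 0 and 4 gave 5, and 8 with one model over all libraries, 3 without a trend, 3 with edgeR, 11 with DESeq2 and 10 with scaling to library totals, and that between days 1 and 4 gave 20, and 9 with one model. For KO against WT at day 1 the count was 27, and 19 to 26 without 1 library. Under quantile normalization the direction turned for Chrna1 at day 4 against day 1 in KO (0.31) and for Des at day 4 against day 0 in WT (0.23). The cause was not tested. With a replicate block, KO against WT at day 1 called 24 members (2 higher, 22 lower), and of the named genes Myom2, Tnnt3 (day 1 against day 0, KO) and Tpm2 (day 1 to day 4) lost their call. Deviations of same-numbered libraries from their group means correlated between -0.024 and 0.27, the highest for replicate 3 of KO and WT at day 1. Such correlations cannot settle whether the numbers mark pairs. A stricter filter left 28 members. Mean levels of the 3 stages moved by more than 1 SD in 31 cases and by less in 41, since pseudocounts and scalings shift the level itself. At day 1, 9 of the 27 called members missed the threshold without at least 1 library, among them Cacng1, Myl2, Mylpf, Myoz1, Tnni1 and Xirp1. Depth limits members at or near 3 counts, such as Myh3 in WT libraries of day 0 and KO libraries of day 1.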
